A study of Mus musculus with 20 samples.

Results

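The genes described here are 9 genes of oligodendrocytes, the cells that wrap axons of the brain in myelin, measured in mice with or without the HIV Tat protein and with or without methamphetamine (Meth). They were chosen by name. Mbp, Mog, Mag, Mobp and Cnp encode proteins of the myelin sheath, Olig1, Olig2 and Sox10 encode transcription factors of the lineage, and Pdgfra encodes a growth factor receptor of its progenitors. A probe was assigned to a gene through the RefSeq accession that the scanner files give for it, which found 13 probes for the 9 genes, among 55681 probes and 20972 gene symbols in all. Mbp and Mobp had 3 probes each and the other 7 genes 1 each.

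Male mice on a C57BL/6J background formed 4 groups of 5, with 1 array per mouse. Tat− mice carried only the Tet-binding protein under the promoter of GFAP, an astrocyte gene, and Tat+ mice also carried the Tat transgene under a Tet-responsive promoter, which places Tat in astrocytes. Tat itself was not analysed here. Every mouse of every group received doxycycline at 100 mg/kg a day for 7 days, and the mice received either saline (Tat−/Sal and Tat+/Sal) or Meth at 2 mg/kg (Tat−/Meth and Tat+/Meth) on 7 days. The labels give an age of 6 to 7 weeks and the left hemisphere of the perfused brain as the tissue. The design text of the series gives harvest 24 h after the last injection. The methods of the study instead give older mice, the caudate putamen, and harvest shortly after a Meth challenge that all groups, saline groups included, received after a period of abstinence. The sources do not settle which of these descriptions holds for the arrays.

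Oligodendrocytes arise from progenitors that carry the PDGF receptor alpha and divide in response to its ligand. Olig2 is needed for the lineage to form and Sox10 for it to mature, and Olig1 acts with them during maturation. Mature cells then make large amounts of myelin proteins: Mbp compacts the cytoplasmic faces of the membrane, Cnp keeps cytoplasmic channels open within the sheath, Mobp is a small basic protein of compact myelin, Mag lies at the contact with the axon, and Mog lies on the outermost layer.

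Promoter stretches are shown for genes of each role, because several genes of the same role varied together between mice, as described further on. The RefSeq table of promoters (GRCm38.p6) held 6 of the 9 genes, namely Mog, Mag, Mobp, Cnp, Olig2 and Pdgfra. Each stretch is the 250 bases before the annotated start, written 5′ to 3′ on the strand of the gene. The stretches lie at chr17:37023399-37023648 (minus strand) for Mog, chr9:120149492-120149741 (plus strand) for Mobp, chr11:100574689-100574938 (plus strand) for Cnp, chr16:91225300-91225549 (plus strand) for Olig2 and chr5:75152001-75152250 (plus strand) for Pdgfra. Capitals mark CANNTG, the E-box letters that basic helix-loop-helix factors such as the Olig proteins can bind, and ACAANG on either strand (CNTTGT when read on the other), which holds the core letters of SOX binding sites.

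Mog: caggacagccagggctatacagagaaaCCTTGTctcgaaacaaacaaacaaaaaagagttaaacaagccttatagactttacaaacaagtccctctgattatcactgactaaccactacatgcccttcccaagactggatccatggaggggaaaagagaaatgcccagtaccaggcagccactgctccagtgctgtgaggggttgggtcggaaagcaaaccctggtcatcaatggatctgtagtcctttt
Mobp: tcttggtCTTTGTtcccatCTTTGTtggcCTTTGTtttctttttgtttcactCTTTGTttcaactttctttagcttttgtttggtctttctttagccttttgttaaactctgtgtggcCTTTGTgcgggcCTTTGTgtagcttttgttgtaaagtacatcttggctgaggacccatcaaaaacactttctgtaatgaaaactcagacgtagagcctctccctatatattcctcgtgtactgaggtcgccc
Cnp: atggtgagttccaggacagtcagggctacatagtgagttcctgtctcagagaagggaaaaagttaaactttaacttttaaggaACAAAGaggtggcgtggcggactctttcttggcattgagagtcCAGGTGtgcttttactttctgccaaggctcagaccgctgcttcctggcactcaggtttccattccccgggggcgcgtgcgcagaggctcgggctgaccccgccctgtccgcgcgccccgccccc
Olig2: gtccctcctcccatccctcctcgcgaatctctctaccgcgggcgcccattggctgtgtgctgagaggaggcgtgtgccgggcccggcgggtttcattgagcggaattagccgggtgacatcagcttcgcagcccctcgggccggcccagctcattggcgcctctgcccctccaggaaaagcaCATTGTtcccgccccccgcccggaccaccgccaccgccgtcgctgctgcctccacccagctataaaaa
Pdgfra: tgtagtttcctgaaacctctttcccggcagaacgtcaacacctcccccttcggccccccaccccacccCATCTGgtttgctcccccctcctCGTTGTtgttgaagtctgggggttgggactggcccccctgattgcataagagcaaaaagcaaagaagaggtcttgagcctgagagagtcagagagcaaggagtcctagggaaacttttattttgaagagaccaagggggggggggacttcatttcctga

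The ACAANG letters were found in 6 of the 6 stretches (6 times in Mobp, 2 times in Mag and once in each of the others), and CANNTG in 2 of the 6 (Cnp and Pdgfra). Of 32851 promoters of the same length in the table, 36.3% held ACAANG and 66.2% held CANNTG. The matches of the 2 motifs did not overlap in any of the stretches. These matches describe the letters only.

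The values are log2 signals scaled so that the 75th percentile is the same on every array, and all 13 probes were well above background on all 20 arrays, with none saturated. Levels of different probes cannot be set against each other. The 5 Tat−/Meth arrays lay on a slide of their own (slide 1), on which the bright corner controls read 14.66 to 15.06 (log2) against 16.80 to 17.42 on the 15 arrays of the other slides. Group and slide therefore cannot be told apart in any comparison that uses Tat−/Meth. Slide 2 held the Tat−/Sal arrays and Tat+/Meth replicates 1 to 3, and slide 3 held the Tat+/Sal arrays and Tat+/Meth replicates 4 and 5. All 8 marker genes of striatal medium spiny neurons were well above background on all 20 arrays, against 2 of 6 markers of cerebral cortex neurons. In bulk tissue, fewer cells of a type and less RNA per cell cannot be told apart. The number of arrays limits the precision.

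The effect of Meth without Tat was examined in Tat−/Meth against Tat−/Sal. By limma with Benjamini-Hochberg adjustment, 4 of the 9 genes passed an adjusted p of 0.05, all of them higher in Tat−/Meth with this scaling: Olig1, Pdgfra, Cnp and Mbp. Over all 15102 genes tested, 50.2% passed, 35% higher and 15.3% lower, so a share of 4 in 9 is near the background. None of the 9 changed more than 2-fold, against 6.85% of all genes. The median of all genes was itself 0.14 higher (log2) in Tat−/Meth.

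Pdgfra, the receptor that marks progenitors, gave the tightest values of the 9 genes. In Tat−/Sal replicates 1 to 5 its log2 signal was 10.82, 10.77, 10.85, 10.75 and 10.85. In Tat−/Meth the 5 arrays read 11.41, 11.24, 11.24, 11.29 and 11.21. Every Tat−/Meth array was above every Tat−/Sal array, a pattern that 24.7% of all genes showed in the same direction. The difference was 0.47 ± 0.05 (log2, SE, n = 5 per group), or 38.3% higher, with an adjusted p of 9.55e-07 by limma, and it was 0.33 above the median of all genes. The Tat+ groups lay lower, at 10.66, 10.77, 10.64, 10.63 and 10.64 in Tat+/Sal. In Tat+/Meth they were 10.60, 10.68, 10.66, 10.65 and 10.86. The 2 Tat+ groups overlapped each other, and both lay wholly below Tat−/Meth. The Pdgfra probe is printed in 10 spots per array, whose values spread with an SD of 0.048 (log2) on the median array. These spots were averaged, whereas the probes of the other genes have 1 spot each. The SD between mice of a group was 0.068, smaller than for all but 2.13% of genes.

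Olig1, the transcription factor that acts during maturation, showed the largest difference of the 9 genes in this comparison. Its log2 signal was 12.97, 13.32, 13.40, 13.24 and 13.52 in Tat−/Sal replicates 1 to 5. It was 13.92, 13.75, 13.96, 13.74 and 14.01 in Tat−/Meth, again with no overlap between the groups. The difference was 0.59 ± 0.10 (SE, n = 5 per group), or 50.1% higher (adjusted p = 0.000152, limma), and 0.45 above the median of all genes. In Tat+/Sal the values were 13.28, 13.44, 13.38, 13.40 and 13.50, and in Tat+/Meth 13.04, 13.24, 13.25, 13.02 and 13.58. These lay within or close to the Tat−/Sal range, and all of them were below the lowest Tat−/Meth array.

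Olig2 and Sox10, the partners of Olig1, did not pass. Olig2 had a mean log2 signal of 10.18 ± 0.24 (SD, n = 5) in Tat−/Sal, 10.11 ± 0.21 in Tat−/Meth, 10.30 ± 0.16 in Tat+/Sal and 10.16 ± 0.34 in Tat+/Meth. The 95% interval of its difference between Tat−/Meth and Tat−/Sal ran from -0.38 to 0.24. Sox10 had means of 12.10 ± 0.24, 12.11 ± 0.17, 12.33 ± 0.20 and 12.19 ± 0.21 in the same order, with an interval from -0.26 to 0.27. The 4 groups overlapped for both genes. Both intervals lay below the lower bound of the Olig1 difference, 0.37, although the difference between genes was not tested.

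Among the sheath proteins, Cnp and Mbp rose in Tat−/Meth. The log2 signal of Cnp, the enzyme of the cytoplasmic channels, was 14.44, 14.39, 14.78, 14.21 and 14.58 in Tat−/Sal. It was 15.04, 14.80, 14.93, 14.61 and 14.62 in Tat−/Meth, so the groups overlapped. The difference was 0.32 ± 0.11 (SE, n = 5 per group; adjusted p = 0.0239, limma), and 0.18 above the median of all genes. The call was lost without Tat−/Meth replicate 1 (adjusted p = 0.0728) or 3 (0.0584), or without Tat−/Sal replicate 2 (0.0524) or 4 (0.0755). In Tat+/Sal the Cnp signal was 14.54, 14.62, 14.72, 14.36 and 14.64, and in Tat+/Meth 14.28, 14.32, 14.15, 14.27 and 14.63. Of the 5 Tat+/Meth arrays, 4 were below all arrays of Tat+/Sal, and replicate 5 was within that group.

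Mbp, the main basic protein of compact myelin, was measured by 3 probes. The brightest, A_52_P604195 (NM_001025245), read 14.32, 14.30, 14.43, 14.23 and 14.35 in Tat−/Sal and 14.53, 14.37, 14.54, 14.60 and 14.42 in Tat−/Meth. The difference of 0.16 ± 0.07 (SE, n = 5 per group; adjusted p = 0.0463, limma) was 0.02 above the median of all genes, and the groups overlapped. It did not pass when any 1 of 12 arrays was left out (adjusted p 0.0512 to 0.117), namely Tat−/Meth replicates 1, 3 and 4, Tat−/Sal replicates 1, 2, 4 and 5, Tat+/Meth replicates 1, 2 and 3, and Tat+/Sal replicates 1 and 2. Both other probes carry NM_010777. With every probe tested on its own, A_55_P1992160 differed by 0.49 ± 0.18 (adjusted p = 0.0299, limma) and A_52_P329451 by 0.31 ± 0.17 (adjusted p = 0.138, limma), while the brightest probe had an adjusted p of 0.0529. The 3 probes pointed the same way, and 1 of them passed in that fit, in which 28.1% of all probes passed and were higher.

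Mog, Mag and Mobp did not pass in Tat−/Meth against Tat−/Sal. The means of Mog were 11.72 ± 0.21 (SD, n = 5) in Tat−/Sal and 11.75 ± 0.22 in Tat−/Meth, with a 95% interval of the difference from -0.22 to 0.28. Those of Mag were 14.17 ± 0.28 and 14.09 ± 0.31, with an interval from -0.42 to 0.26. The brightest Mobp probe, A_55_P1958798, had means of 14.63 ± 0.33 and 14.62 ± 0.27, with an interval from -0.38 to 0.36. These intervals are wide beside the differences of Cnp and Mbp, and the groups overlapped for each gene. The other Mobp probes, A_51_P291224 and A_55_P1958793, differed by 0.21 ± 0.20 and 0.25 ± 0.13 (SE) and did not pass.

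**Figure D1:**
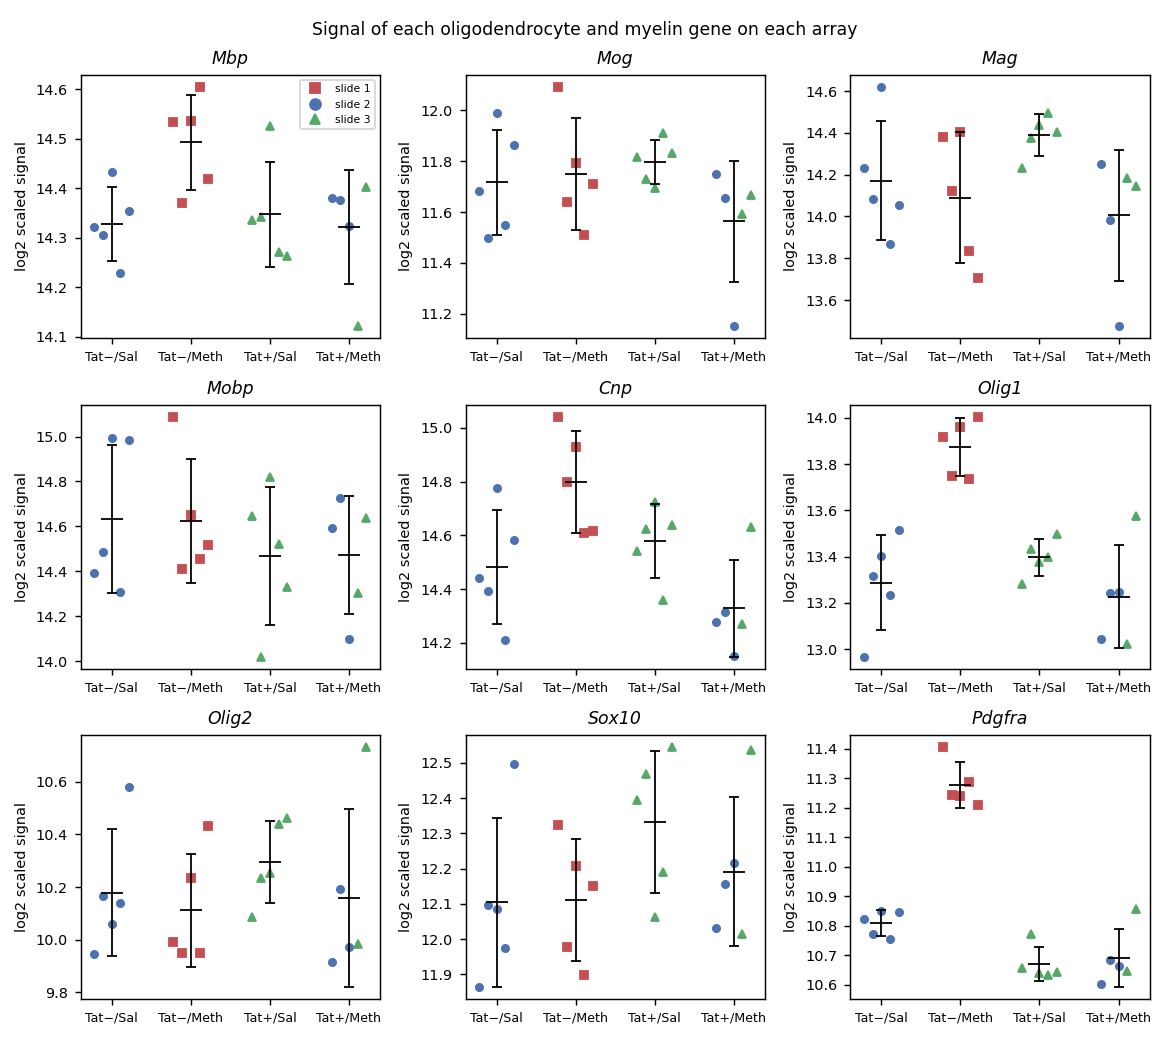
Log2 scaled signal (vertical axis, a separate range for each gene) of the brightest probe of each of the 9 genes in the 4 groups. Points are single arrays, coloured by slide, and bars are the mean ± SD (n = 5). The 5 Tat−/Meth arrays, which alone were on slide 1, stand above all other arrays for Pdgfra (11.21 to 11.41) and Olig1 (13.74 to 14.01).

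The effect of Tat in mice given Meth was examined in Tat+/Meth against Tat−/Meth, which shares the Tat−/Meth arrays with the comparison above, so that a high or low value on those arrays moves both comparisons in opposite directions. In it 4 of 9 genes passed, all lower in Tat+/Meth, against 54.4% of all genes passing, 16% higher and 38.5% lower, so this share too is near the background. None changed more than 2-fold, against 7.22% of all genes. Pdgfra fell by 0.59 ± 0.05 (log2, SE, n = 5 per group; adjusted p = 4.83e-08, limma), Olig1 by 0.65 ± 0.10 (adjusted p = 4.73e-05), Cnp by 0.47 ± 0.11 (adjusted p = 0.00167) and Mbp by 0.17 ± 0.07 (adjusted p = 0.0357). Groups did not overlap for Pdgfra and Olig1, as for 26.8% of all genes in that direction. The median of all genes was 0.15 lower, so the Mbp difference lay 0.02 below it and the Pdgfra difference 0.43 below. Mbp did not pass without Tat−/Meth replicate 1, 3 or 4 or Tat+/Meth replicate 3 or 4 (adjusted p 0.0552 to 0.113).

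The probes of Mbp and Mobp differed in size in this comparison. With every probe on its own, Mbp probe A_52_P329451 was 0.60 ± 0.17 lower in Tat+/Meth (adjusted p = 0.0069, limma), with 13.69, 13.41, 12.77, 13.68 and 13.58 in Tat+/Meth against 14.37, 13.76, 14.20, 14.001 and 13.82 in Tat−/Meth. Those groups did not overlap, and over all probes 30.3% passed and were lower. Mbp probe A_55_P1992160 was 0.47 ± 0.18 lower (adjusted p = 0.035, limma). Mobp probe A_55_P1958793 was 0.35 ± 0.13 lower (adjusted p = 0.0317, limma), whereas the brightest Mobp probe differed by -0.15 ± 0.18 and did not pass. The remaining Mobp probe, A_51_P291224, was 0.37 ± 0.20 lower and did not pass (adjusted p = 0.132, limma). For Mbp and for Mobp, the brightest probe carries another transcript accession than the other probes of the gene, which share theirs. No test between probes was made.

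The remaining comparisons contain no Tat−/Meth array. In Tat+/Sal against Tat−/Sal, the comparison of Tat within the saline groups, all Tat−/Sal arrays lay on slide 2 and all Tat+/Sal arrays on slide 3. By limma 0 of 9 genes passed, against 1.42% of all genes. That share ran from 0% without Tat−/Sal replicate 1 or Tat+/Sal replicate 5 to 3.62% without Tat−/Sal replicate 3, and was 0% with slide as a fixed block. At an unadjusted p under 0.05 the count was 1, namely Pdgfra, by limma and by the methods' t-test, against 20.5% of all genes by limma. The Pdgfra difference was -0.14 ± 0.05 (SE, n = 5 per group; adjusted p = 0.144, limma), with a 95% interval from -0.25 to -0.03. For the 8 other genes the interval held 0, and the widest, of Mobp, ran from -0.53 to 0.21. Differences of 2-fold lay outside the intervals of all 9 genes, in a fit that takes no account of slide. With slide as a fixed block the differences of Mog, Mag, Cnp, Olig1 and Olig2 changed sign, and none passed. Mag went from 0.22 to -0.04 and Olig2 from 0.12 to -0.22. In that fit only the Tat+/Meth arrays, which lie on both slides, tell slide and group apart.

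In Tat+/Meth against Tat+/Sal, the effect of Meth in the presence of Tat, 0 of 9 passed by limma, against 0% of all genes. At an unadjusted p under 0.05 the count was 2, Mag and Cnp, by limma and by the methods' t-test, against 12.2% of all genes by limma. The Mag signal was 14.23, 14.38, 14.44, 14.50 and 14.41 in Tat+/Sal and 14.25, 13.98, 13.47, 14.18 and 14.14 in Tat+/Meth. The difference was -0.38 ± 0.16 (SE, n = 5 per group; adjusted p = 0.355, limma), and that of Cnp was -0.25 ± 0.11 (adjusted p = 0.38, limma). For Mag, 4 of 5 Tat+/Meth arrays were below all Tat+/Sal arrays. On slide 3 alone, Mag differed by -0.23 and Mog by -0.17 between 2 Tat+/Meth and 5 Tat+/Sal arrays, each with a two-sided exact permutation p of 0.0952, the smallest this design allows. All 9 genes were compared in this way on slide 3, and for the others the same test gave a p of 0.286 (Pdgfra) to 0.952 (Mobp).

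In Tat+/Meth against Tat−/Sal, 0 of 9 genes passed by limma, against 0% of all genes. The count at an unadjusted p under 0.05 was 1, Pdgfra, by limma and by the methods' t-test, against 7.79% of all genes by limma. Pdgfra differed by -0.12 ± 0.05 (SE, n = 5 per group; adjusted p = 0.64, limma). On slide 2 alone, with 3 Tat+/Meth and 5 Tat−/Sal arrays, Pdgfra differed by -0.16 with no overlap (two-sided exact permutation p = 0.0357, the smallest possible there). Each of the 9 genes was compared in this way on this slide, and for the others the same test gave a p of 0.107 (Cnp) to 0.786 (Sox10). The share of all genes without overlap on this slide is not given here.

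The interaction asks whether the Meth effect differed between Tat+ and Tat− mice. It passed for 3 of 9 genes, Olig1, Cnp and Pdgfra, all lower, against 36% of all genes passing, 12.4% higher and 23.6% lower. The Meth effect in Tat+ mice was smaller than that in Tat− mice by 0.76 ± 0.15 for Olig1 on the log2 scale (the interaction was -0.76, adjusted p = 0.000633, limma). For Cnp it was -0.57 ± 0.16 (adjusted p = 0.00904, limma) and for Pdgfra -0.45 ± 0.07 (adjusted p = 0.000147, limma). Mbp had -0.19 ± 0.09 (adjusted p = 0.121, limma) with its brightest probe, and -0.46 (adjusted p = 0.00656, limma) with the mean over its 3 probes. The median of all genes was -0.14. This term also rests on the Tat−/Meth arrays and cannot be told apart from slide 1.

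**Figure D2:**
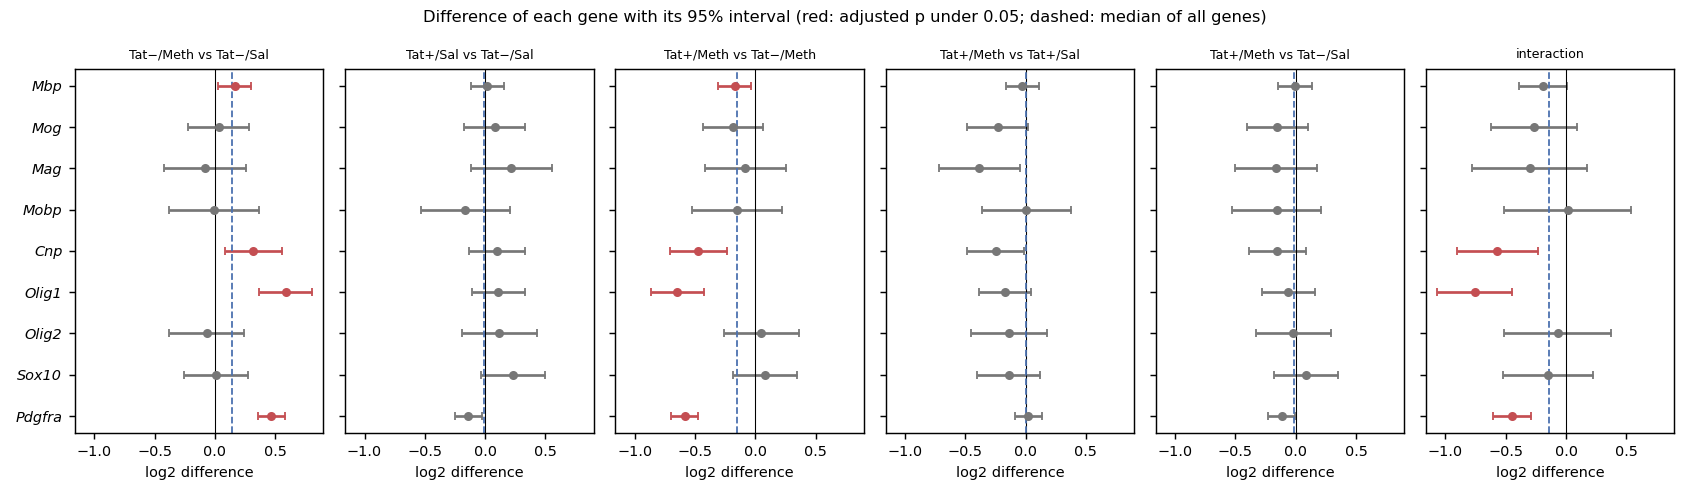
Log2 difference (horizontal axis) of each of the 9 genes in the 5 comparisons and the interaction, with its 95% interval from limma. Red points passed an adjusted p of 0.05 and the dashed line is the median of all genes; red points appear only in the 2 comparisons that use Tat−/Meth (4 genes each) and in the interaction (3 genes).

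Whether these genes passed, and for some the direction, depended on the scaling of the arrays. Without any scaling the median of all genes was -0.29 in Tat−/Meth against Tat−/Sal, and 1.72% of 7259 calls were higher, against 5281 higher and 2307 lower with scaling. Pdgfra then differed by 0.05 (adjusted p = 0.712, limma), Olig1 by 0.17 (adjusted p = 0.148), Cnp by -0.10 (adjusted p = 0.482) and Mbp by -0.26 (adjusted p = 0.0144), while Mog, Mag, Mobp, Olig2 and Sox10 passed with differences from -0.39 (Mog) to -0.50 (Mag). The unscaled Tat+/Meth against Tat−/Meth differences of Pdgfra (-0.25, adjusted p = 0.0462, limma) and Olig1 (-0.31, adjusted p = 0.0118) stayed below 0 and passed, those of Cnp (-0.13) and Mbp (0.17) did not pass, and Olig2 and Sox10 passed as higher (0.39 and 0.42). For that comparison, 94.2% of 5617 unscaled calls were higher, against 2409 higher and 5811 lower with scaling, and for the interaction 99.2% of 5953, against 1879 higher and 3558 lower.

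Other genes of the lineage were grouped in 7 lists of 79 genes, of which Myrf, Pdgfd, Fgf2, Erbb3 and Erbb4 were below the signal limit and were not tested. In Tat−/Meth against Tat−/Sal, 5 of the 8 enzymes that make myelin lipids were higher and none lower, against 35% higher and 15.3% lower over all genes: Cers2, a ceramide synthase, by 0.63 ± 0.08 (adjusted p = 3.28e-06, limma), Elovl7 by 0.53 ± 0.13 and Gal3st1, which makes sulfatide, by 0.41 ± 0.13. Of 16 other genes of mature oligodendrocytes, 8 were higher and none lower, with Klk6, a secreted protease, at 0.69 ± 0.21, Evi2a at 0.56 ± 0.12 and Tmem88b at 0.48 ± 0.14. The median differences were 0.30 and 0.23, against 0.14 for all genes. Without scaling, none of the lipid enzymes was higher and 1 was lower, and none of the mature genes was higher and 5 were lower, against 48.0% of all genes passing, of which 1.72% were higher.

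Other proteins of the myelin membrane and its junctions were mixed, with 4 of 14 higher, 2 lower and a median of 0.23. Gjb1, a connexin of oligodendrocyte gap junctions, differed by -0.74 ± 0.21 (adjusted p = 0.00601, limma), and Hapln2, a link protein at nodes of Ranvier, was higher by 0.43 ± 0.14. Of 11 genes of progenitors and newly formed cells, 5 were higher and none lower (median 0.20), among them Pcdh15 (0.67 ± 0.13), C1ql1 (0.67 ± 0.23) and Tnr (0.51 ± 0.15). Unscaled, no gene of these 2 lists was higher, and 5 and 1 were lower.

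The factors and signals that act on the lineage held the genes with the largest differences of the 7 lists, Lingo1 and Tcf7l2. Of 7 tested factors that drive differentiation, 3 were higher and 1 was lower. The lower one was Tcf7l2, an effector of Wnt signalling, at -1.61 ± 0.09 (adjusted p = 4.71e-11, limma), while Nkx2-2 (0.53 ± 0.15) and Zeb2 (0.51 ± 0.09) were higher. Of 8 factors that hold differentiation back, 4 were higher and 1 was lower, namely Lingo1, a component of the Nogo receptor complex, at -2.04 ± 0.19 (adjusted p = 9.91e-08, limma). Hes5 (0.63 ± 0.18) and Sox6 (0.45 ± 0.11) were among those higher. Of 10 tested growth factors and receptors, 3 were higher and 2 lower, with Fgfr2 at -0.86 ± 0.06, Nrg1 at 0.36 ± 0.09 and Fgfr1 at -0.28 ± 0.08. Unscaled, none of the genes of these 3 lists was higher, and 3, 4 and 7 were lower. Many of these genes are also used by neurons or astrocytes.

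In Tat+/Meth against Tat−/Meth, which shares the Tat−/Meth arrays, the lists read as follows. Over all genes 38.5% were lower and 16% higher. Lower in Tat+/Meth were 7 of 8 lipid enzymes, 9 of 16 mature genes and 9 of 14 membrane and junction proteins, and 2 of those 14 were higher, among them Gjb1 (0.88 ± 0.21). Evi2a (-0.83 ± 0.12), Tmem88b (-0.79 ± 0.14) and Elovl7 (-0.77 ± 0.13) were among the lower genes. The list medians were -0.46, -0.41 and -0.41, against -0.15 for all genes. Of the progenitor genes 2 of 11 were lower (Pcdh15, -0.70 ± 0.13, and Lhfpl3, -0.35 ± 0.10), with a median of -0.16. Of the factors that drive differentiation 4 of 7 were lower and 1 was higher, Tcf7l2 (1.71 ± 0.09), and of those that hold it back 5 of 8 were lower and 1 was higher, Lingo1 (1.70 ± 0.19). Of the growth factors and receptors 4 of 10 were higher and 3 lower, with Pdgfb, a PDGF ligand, at 1.19 and Fgfr2 at 0.83. Unscaled, no factor of either kind and no growth factor or receptor was lower, and 2 lipid enzymes, 5 mature genes and no membrane or junction protein were lower, against 37.2% of all genes passing, 94.2% of them higher.

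**Figure D3:**
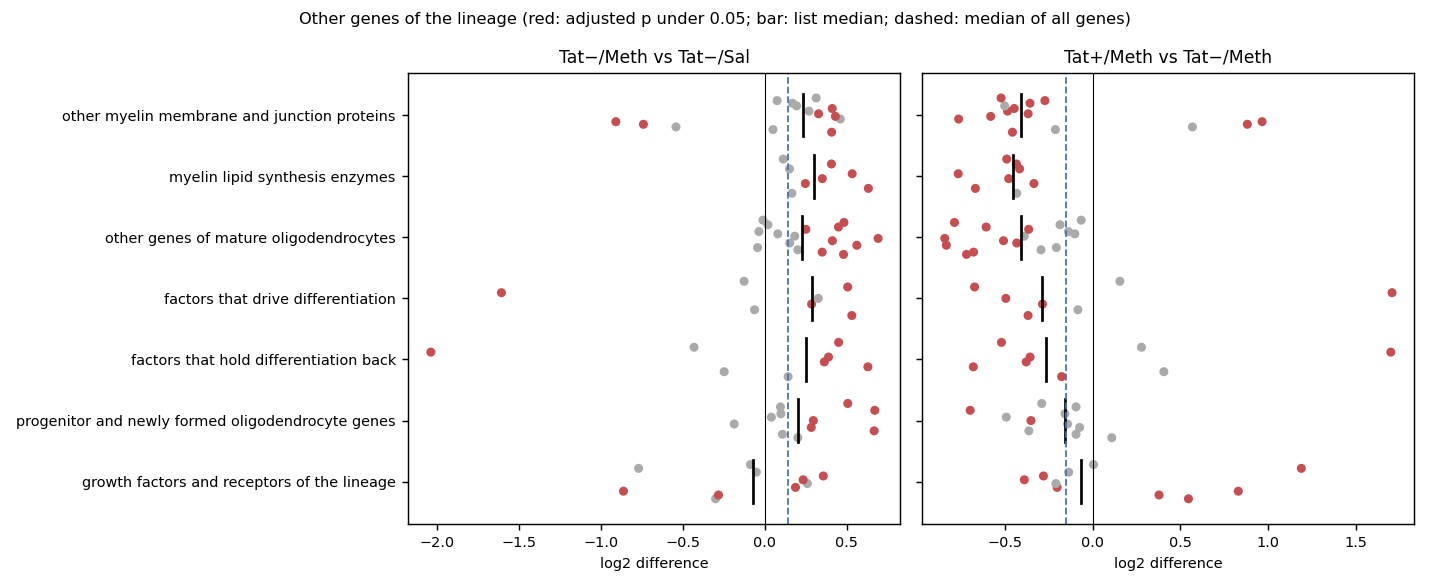
Log2 difference (horizontal axis) of each tested gene of 7 lists of the lineage (rows) in the 2 comparisons that use Tat−/Meth. Red points passed an adjusted p of 0.05, the bar is the list median and the dashed line the median of all genes; the lipid enzymes have medians of 0.30 and -0.46, and Lingo1 (-2.04 and 1.70) and Tcf7l2 (-1.61 and 1.71) lie farthest out.

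In the interaction, 9 of 16 mature genes, 4 of 8 lipid enzymes and 4 of 14 membrane and junction proteins passed by limma, all of them lower, against 23.6% of all genes. Without scaling, 1 mature gene and none of the other 2 lists was lower, and 3 membrane and junction proteins were higher, against 39.4% of all genes passing, 99.2% of them higher. Klk6 (-1.17 ± 0.30, adjusted p = 0.00511) and Cers2 (-0.76 ± 0.11, adjusted p = 4.39e-05) were the largest of the first 2 lists. The factors that drive differentiation had 3 of 7 lower and 1 higher, Tcf7l2 (1.83 ± 0.12), and those that hold it back 3 of 8 lower and 1 higher, Lingo1 (2.64 ± 0.27), the largest values of the 7 lists. Of the growth factors and receptors 2 of 10 were higher, Fgfr2 (0.78 ± 0.09) and Fgfr1 (0.39 ± 0.11), and none was lower. The 11 progenitor genes had a median of -0.24 and a smallest adjusted p of 0.073. In Tat+/Sal against Tat−/Sal the only gene of the 7 lists that passed was Lingo1 (-0.94 ± 0.19, adjusted p = 0.0319, limma). These groups lie on slides 2 and 3, and with slide as a fixed block the difference was -0.28 (adjusted p = 0.929, limma). The call was also lost without Tat−/Sal replicate 1, 2 or 4 or Tat+/Sal replicate 3, 4 or 5 (adjusted p 0.0551 to 0.113), with median scaling (0.772) and without scaling (0.0586).

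Markers of other cells were also compared between Tat−/Meth and Tat−/Sal, where 35% of all genes were higher and 15.3% lower. Of 8 astrocyte markers, 4 were higher in Tat−/Meth than in Tat−/Sal and none was lower, and their summed log2 signal was 16.71 to 17.00 in Tat−/Meth against 16.50 to 16.67 in Tat−/Sal. Their median difference was 0.26. The sum was 16.46 to 16.72 in Tat+/Sal and 16.48 to 16.65 in Tat+/Meth. For 7 microglia markers the sum was 16.82 to 16.95 in Tat−/Meth, against 17.41 to 17.78 in the Tat−/Sal group, with 1 marker higher and 2 lower and differences from -1.07 to 0.36 around a median of -0.05. For 7 neuronal markers it was 17.97 to 18.15 against 18.21 to 18.47, with 1 higher and 1 lower, whereas the median difference of the 7 was 0.13. For 7 vessel markers it was 14.90 to 15.22 against 14.56 to 14.88, with 2 higher and none lower. Of 8 markers of medium spiny neurons none was higher and 2 were lower. Of 4 Schwann cell markers, 2 were well above background on all 20 arrays, whereas Pmp2 was so on none. In Tat−/Meth against Tat−/Sal, 1 of the 3 tested Schwann cell markers was lower and none was higher. These values too depend on the scaling, and unscaled values of the markers are not given here. Leaving it out shifts every gene by the same amount, which took Mbp from 0.16 to -0.26 in this comparison. The part of these cells in the differences above was not tested.

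Within groups, the brightest probes of several genes of the same role varied together from mouse to mouse. The mean of each group on each slide was subtracted from each gene, and the 36 pairs of the 9 genes were compared over the 20 arrays. Only the brightest probe of a gene was used, and the probes of a gene did not always move together. Within Tat+/Sal, replicate 3 was highest for the brightest Mbp probe (14.53) and lowest for A_52_P329451 (13.21). It was likewise highest for the brightest Mobp probe (14.82) and lowest for A_51_P291224 (12.80), while the third probe of each gene was highest there. Over the 10 pairs of the 5 sheath protein genes the median Pearson r was 0.61 (0.21 to 0.76), with 10 of 10 above 0. Over all 36 pairs it was 0.34, with 33 above 0. Of the 36 pairs, 7 passed an adjusted p of 0.05 by Pearson's r in a permutation test and 4 by both r and Spearman's rho, and all 7 were pairs within a role. Mog with Mag (0.76), Mog with Cnp (0.61) and Mag with Cnp (0.67) passed by r alone. None of the 7 pairs included Mbp.

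Olig1 and Olig2 had the highest value, r = 0.85 (adjusted permutation p = 0.0253) and rho = 0.79 (adjusted permutation p = 0.0217), with r = 0.82 without the 2 arrays farthest from the median of Olig1. Olig1 and Sox10 had r = 0.80 (adjusted permutation p = 0.0253) and rho = 0.77 (adjusted permutation p = 0.0217), and 0.75 without 2 arrays. Mog and Mobp had r = 0.75 (adjusted permutation p = 0.0253) and rho = 0.76 (adjusted permutation p = 0.0217), and 0.64 without 2 arrays. Mobp and Cnp had r = 0.66 (adjusted permutation p = 0.0272) and rho = 0.67 (adjusted permutation p = 0.0447), and 0.70 without 2 arrays. Between the roles, Mag had r = -0.03 with Olig1 and -0.16 with Olig2, and Mobp had 0.36 with Olig1. The highest value between roles was 0.62, of Cnp with Pdgfra, which did not pass. Whether pairs within a role exceeded pairs between roles was not tested.

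**Figure D4:**
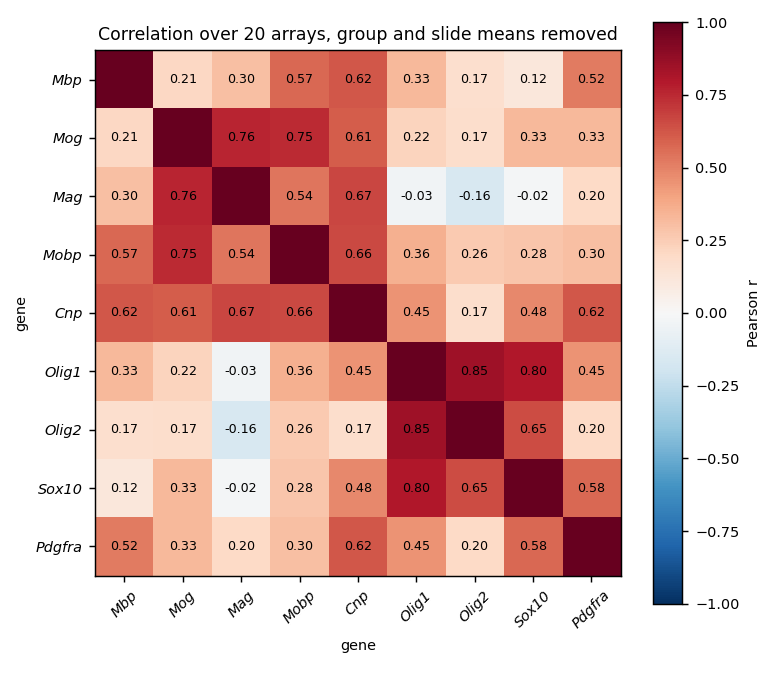
Pearson r between each pair of the 9 genes (both axes) over 20 arrays after the mean of each group on each slide was removed; red is above 0 and blue below. High values stand among the sheath protein genes (Mog and Mag 0.76, Mog and Mobp 0.75) and among Olig1, Olig2 and Sox10 (0.65 to 0.85).

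**Figure D5:**
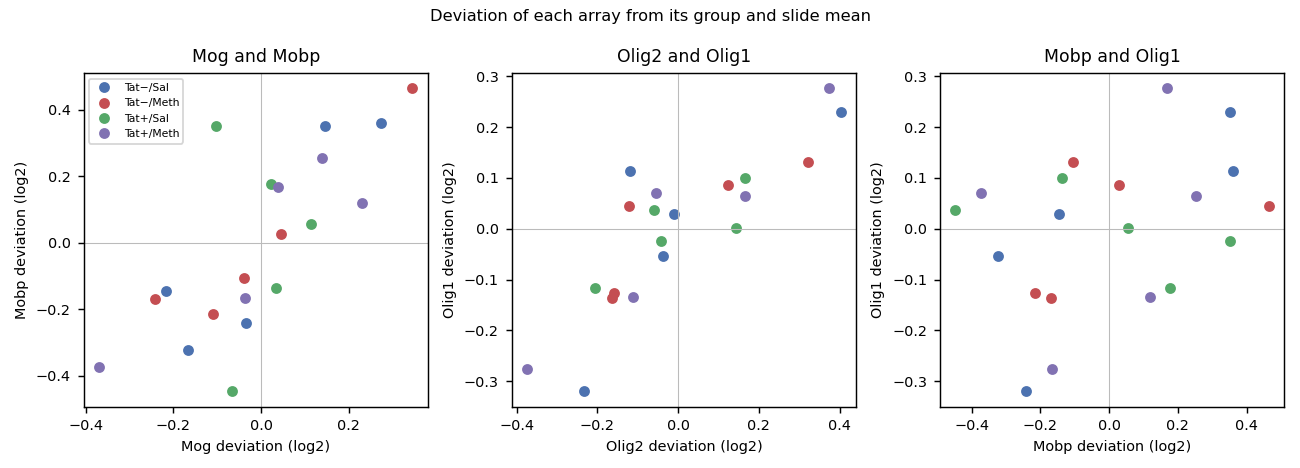
Deviation of each array (points, coloured by group) from the mean of its group on its slide, in log2 units, for Mog and Mobp (r = 0.75), Olig2 and Olig1 (r = 0.85), and Mobp and Olig1 (r = 0.36). The first 2 pairs rise together over the 20 arrays, and the third is more scattered.

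The 9 genes spread to different degrees. The SD between mice of a group was 0.099 for Mbp, 0.18 for Cnp, 0.20 for Mog, 0.27 for Mag and 0.30 for Mobp, against a median of 0.15 over all genes. It was 0.17 for Olig1, 0.24 for Olig2 and 0.21 for Sox10. Pdgfra and Mbp were thus the only 2 of the 9 genes that spread less than the median gene.

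The mean deviation of the 5 sheath protein genes was compared with 15045 other genes over the same 20 arrays, as a description. Most alike were Ttyh2, a membrane protein of the tweety family (r = 0.94), Lgi3 (0.91), Hapln2 (0.90) and Cldn11, the tight junction protein of myelin (0.90). They were followed by Pdlim2 (0.89), the cytokine gene Il33 (0.89), Slc44a1, a choline transporter (0.89), Grb14 (0.88), Cpm (0.88) and Septin4 (0.87). The median over all genes was 0.05. Of the 16 other genes of mature oligodendrocytes, 16 were above 0 with a median of 0.69, and the 8 lipid enzymes had a median of 0.48. The 14 other membrane and junction proteins had a median of 0.35 (-0.02 to 0.90). That was near the medians of 7 neuronal markers (0.34) and 7 vessel markers (0.29). Markers of astrocytes ran from -0.13 to 0.81 (median 0.15) and those of microglia from -0.25 to 0.81 (median 0.11). The upper ends were single genes, S100b and Itgam, so some high values lay outside the lists of oligodendrocyte genes. The 11 progenitor genes had a median of 0.07, with 7 above 0, and the 7 tested factors that drive differentiation one of -0.10, with 3 above 0. All these values share the same arrays and scaling. Without the Tat−/Meth arrays, the median of the 10 sheath protein pairs was 0.57 over 15 arrays, again with 10 of 10 above 0.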

How the data were processed

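Total RNA of 20 mouse brain samples was hybridised to 1-colour Agilent arrays (Cy3). The deposited files are scanner output of Agilent Feature Extraction 10.7.3.1 per the file headers, with 62976 spots an array, and their unit is intensity; the authors' processed values, deposited as a second table on a linear intensity scale, served as an alternative. The study's methods name another scanner, dye and array than the headers. Here log2 of the processed intensity as deposited was shifted so that the 75th percentile was the same on all arrays. Outlier spots (4278 in all, none of the probes described) and control spots were left out, spots of a probe were averaged, and the brightest probe stood for a gene. Genes needed a mean log2 signal of 6 in 1 group or more and 3 arrays in every group. Differences were fitted with limma 3.58.1 (R 4.3.3), 1 mean per group over all 4 groups, with Benjamini-Hochberg adjustment over 15102 genes, or over 31516 probes where probes were tested alone. The fit was tested on simulated data. Correlations used 100000 permutations of arrays within group and slide, two-sided, adjusted over 36 pairs. Single-slide comparisons used exact permutation tests. Figures were drawn with matplotlib.

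The genes, lists and tests were chosen with earlier results of these data known. Named were all 9 genes with every probe, per list and comparison up to 3 passing genes with the largest difference, and the 10 genes most alike the sheath protein genes; Pmp2 and the untested genes were named after their values were seen, and some genes of the lists are not reported here by name. The alternatives changed scaling, background correction, filters, probe choice, blocks, thresholds and single arrays, or used the authors' values.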

Additional observations from a re-analysis of the deposited data

Results flagged for a closer look

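In 52 sets of 5 arrays (13 probes in 4 groups), 3 held an array that stood apart from the other 4 by the limit for groups of 5, where chance gives about 1 in 20. The brightest Mbp probe read 14.12 in Tat+/Meth replicate 4, with the other arrays at 14.32 to 14.40. Mog read 11.15 in Tat+/Meth replicate 3, with the others at 11.59 to 11.75. Pdgfra read 10.77 in Tat+/Sal replicate 2, with the others at 10.63 to 10.66.

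For 3 genes the Meth effect differed between Tat+ and Tat− mice by the interaction term of limma, at -0.57 for Cnp, -0.76 for Olig1 and -0.45 for Pdgfra (log2). The Tat−/Meth arrays lay on a slide of their own, so slide and group cannot be told apart here.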

How the results depend on the processing

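Of the 4 genes higher in Tat−/Meth than in Tat−/Sal, 2 passed with median scaling, 2 with the authors' processed values, and 0 above 2-fold or above 3-fold at an adjusted p of 0.01; with 1 array left out the count ran from 2 to 4. For Tat+/Meth against Tat−/Meth the 4 became 0 above 2-fold and 0 above 3-fold, and ran from 3 to 4 with 1 array left out. Under median scaling the differences of the genes that lost the call were larger, not smaller: 0.44 for Cnp and 0.29 for Mbp in Tat−/Meth against Tat−/Sal, and -0.80 for Cnp and -0.68 for Pdgfra in the interaction. For the interaction, the count of 3 became 1 with median scaling (Olig1) and 0 above 2-fold or 3-fold, and was 3 whichever array was left out. Without scaling none of Cnp, Olig1 and Pdgfra passed it (adjusted p = 0.711, 0.104 and 0.829, limma), and the 1 gene that did was Mbp, as higher. The methods' t-test without adjustment gave 1 gene for Tat+/Sal against Tat−/Sal, 2 for Tat+/Meth against Tat+/Sal and 1 for Tat+/Meth against Tat−/Sal, where limma gave 0; with 1 array left out limma gave 0 in each.

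Leaving out the scaling shifts every gene of a comparison by the same amount, so differences that are smaller than that shift and opposite to it change sign. This happened to 12 differences of which one value or the other passed. In Tat−/Meth against Tat−/Sal these were Mbp (-0.26), Mog (-0.39), Cnp (-0.10), Sox10 (-0.41), Nrg1 (-0.064) and Gal3st1 (-0.014). In Tat+/Meth against Tat−/Meth it was Mbp (0.17), and in the interaction Mbp (0.30), Pdgfra (0.040), Elovl1 (0.017), Jam3 (0.084) and Omg (0.092). Over 4606 recomputed differences, a further 113 changed sign while passing in neither setting and were not counted as reversed; 147 lost and 25 gained the call with the sign kept.

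The replicate numbers of the titles were not used to pair the mice. Over 30 same-number pairs of arrays the median correlation of deviations was 0.04 (-0.18 to 0.35), against -0.015 over other pairs. Of those 30 pairs 8 were over 0.1, and 7 of 20 arrays were closest to one of their own number. Whether the numbers pair the mice was not tested. With the number as a replicate block, 4, 0, 4, 0, 0 and 3 genes passed in the order of the comparisons, the same counts as without it. Slide as a fixed block could not be fitted for the comparisons with Tat−/Meth. As a random block its estimated correlation was -0.062, so that fit takes out no slide effect, and its counts of 4, 4 and 3 there bear on none; in Tat+/Sal against Tat−/Sal it raised the share of all genes passing to 15.4%.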
